A study of Homo sapiens with 6 samples.

Results

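The long noncoding RNAs MALAT1, NEAT1, TUG1, KCNQ1OT1, H19 and MEG3 were examined in RNA-seq data of K562 cells, a human leukemia line. They were taken by gene symbol from a table of 57150 genes, in which each of the 6 symbols had 1 row. Of the 6, MALAT1, NEAT1 and TUG1 were grouped as nuclear-retained RNAs, and KCNQ1OT1, H19 and MEG3 as transcripts of imprinted genes. The study transfected 3 pools of cells with siRNAs that target both αCP1 and αCP2, which bind cytosine-rich RNA, and 3 pools with control siRNAs, to ask how αCP proteins act on alternative splicing. Cells were collected after 72 h, and the 6 libraries, of pools from an earlier study and 1 further pool per group, were sequenced together. The table used here gives 1 FPKM value (fragments per kilobase of transcript, scaled for sequencing depth) and 1 estimated count per gene for each group, in a column labelled KD (αCP1/2 siRNAs) and a column labelled CTRL (control siRNAs). Values are given below as those under the KD label and those under the CTRL label. The spread between the 3 libraries of a group could therefore not be computed, no test was run, and each difference below is between 2 columns. In such bulk data, fewer cells of a type and less RNA per cell cannot be told apart.

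The targeted genes and the markers of the cell line did not follow the labels. PCBP1, which encodes αCP1, had an FPKM of 184.1 under the KD label and 187.8 under the CTRL label, a log2 ratio of -0.03. PCBP2, which encodes αCP2, had 530.8 and 342.4, a log2 ratio of 0.63. As log2 ratios of their shares of all counts, PCBP1 was at -0.25 and PCBP2 at 0.37, where a gene of equal counts is at -0.23. Of 12 erythroid and hematopoietic genes, 8 were listed at 0 in both columns, among them GATA1, KLF1 and HBZ, and 1 averaged 1 FPKM or more over the columns. Their summed FPKM was 4.42 and 6.41. Of 8 epithelial genes, 5 reached that mean, KRT19 and ESRP1 were at 0 in both columns, and the summed FPKM was 4369.5 under the KD label and 3189.5 under the CTRL label. Nearly all of that sum came from the keratin genes KRT18, KRT8 and KRT7. CLDN4 had an FPKM of 11.1 and 15.0, EPCAM 3.94 and 3.26 and CDH1 0.363 and 0.426, under the KD and CTRL labels in turn. The part of these differences in the results below was not tested. The estimated counts summed to 13699340 under the KD label and 11680567 under the CTRL label. These column totals are sums of estimates and not numbers of sequenced reads.

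Nuclear long noncoding RNAs act without being translated. MALAT1 gathers in nuclear speckles, which store splicing factors, and NEAT1 is the scaffold on which paraspeckles are built. TUG1 is found in both the nucleus and the cytoplasm, with a nuclear pool that keeps unspliced introns. H19 and MEG3 are expressed from the maternal allele and KCNQ1OT1 from the paternal allele, where the last of these silences its neighbours in cis. H19 is exported to the cytoplasm, so the imprinted group is defined by its control and not by its place in the cell. Mature MALAT1 and the long form of NEAT1 end in a triple helix in place of a poly(A) tail, while the library kit selects polyadenylated RNA.

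Because αCP proteins bind C-rich RNA, the sequence of each RNA was searched for the C-rich consensus that the study found beside αCP-dependent exons. For the 6 genes, the longest transcript of GENCODE release 44 on GRCh37 was read on its sense strand. The study found the consensus in the introns beside those exons and not inside the exons, whereas the transcripts searched here hold exons only. The stretches of 30 bases below, from the loci that the table gives, hold the most bases in matches within each transcript, with the matched bases in capitals. They are shown for the 3 RNAs that the columns differed in most. The stretch with the most matched bases among the 6 RNAs lay in KCNQ1OT1, the longest transcript, and is not shown. It had 28 of 30 bases in 3 matches, against 20 bases for H19, 15 for MALAT1 and 10 for NEAT1. TUG1 had no match within its locus.
MALAT1, chr11:65272251-65272280, plus strand, exon 1 of 1: tttCTCTCTCCCCTCCCTtggtcttaattc
NEAT1, chr11:65196225-65196254, plus strand, exon 1 of 1: cccgccgccaccctccaggaCCTCCAGCCC
H19, chr11:2018591-2018620, minus strand, exon 1 of 4: TTCCCTCCCCaggcctcgctTCCCCAGCCT

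The stretch of MALAT1 held 2 overlapping matches, that of NEAT1 held 1 and that of H19 held 2. Over whole transcripts, MALAT1 had 7 matches in 10434 nt, NEAT1 had 16 in 22743 nt and H19 had 2 in 2396 nt. KCNQ1OT1 had 55 in 91667 nt, MEG3 had 6 in 12998 nt and TUG1 had 1 in 7474 nt, which lay outside the locus that the table gives. Per kilobase, the density ran from 0.134 for TUG1 to 0.835 for H19, and the median was 0.477 over 13298 genes that averaged 1 FPKM or more and had an annotated transcript. The consensus occurred in 73.4% of those transcripts.

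TUG1 stood near the lower end of this distribution, and the other RNAs away from both ends. No match was found in 26.6% of the genes. The share of genes with a lower density was 61.5% for MALAT1, 63.2% for NEAT1, 27.7% for TUG1, 57.9% for KCNQ1OT1, 68.7% for H19 and 49.1% for MEG3. The shorter motif CCCTCC, searched on the sense strand and overlapping the consensus in part, was present in 67.5% of the transcripts at a median of 0.362 per kb. H19 had 4 copies, or 1.67 per kb, and 92.7% of genes had a lower density. MALAT1 was at 0.671 per kb, TUG1 at 0.669, NEAT1 at 0.572, MEG3 at 0.462 and KCNQ1OT1 at 0.425. A match describes the sequence only, and binding was not measured in these data.

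**Figure D1:**
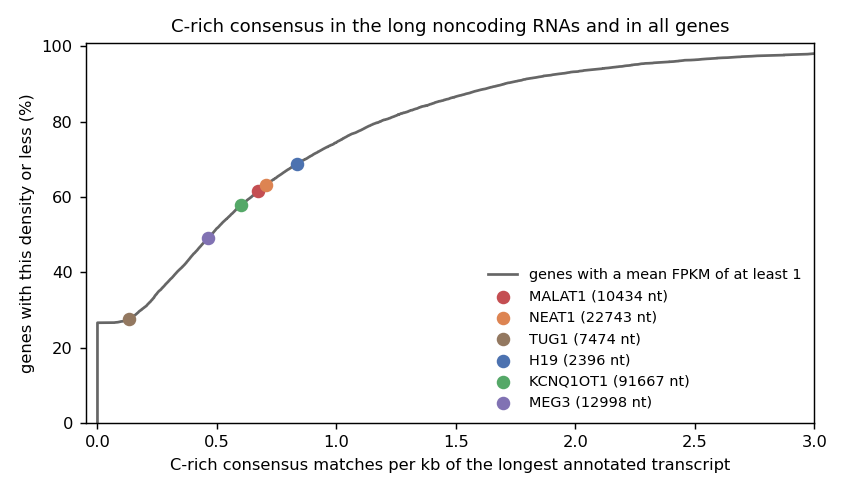
Matches to the C-rich consensus per kilobase of the longest annotated transcript (x axis) against the percentage of genes with that density or less (y axis). The grey line is the 13298 genes that averaged 1 FPKM or more, and the points are the 6 long noncoding RNAs, which lie from 0.134 (TUG1) to 0.835 (H19) matches per kb. TUG1 is near the start of the line, which is set by the 26.6% of genes with no match.

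The levels of the 6 RNAs ran from 0 to among the highest of the table. Per length, in FPKM, the order was MALAT1, H19, NEAT1, TUG1, KCNQ1OT1 and MEG3 in both columns. MALAT1 had an FPKM of 1673.9 under the KD label and 2855.6 under the CTRL label. H19 had 1217.5 and 721, and pairs of values below keep this order of columns. Both were among the most abundant RNAs, with MALAT1 at rank 115 and 37 and H19 at rank 145 and 164 of all genes by FPKM. NEAT1 had an FPKM of 67.1 under the KD label and 90.5 under the CTRL label, and TUG1 had 15.8 and 19.1. KCNQ1OT1 had 0.116 and 0.129, and MEG3 was listed at 0 in both. The FPKM minimum of 1 on the mean of the columns was passed by 4 of the 6, and KCNQ1OT1 and MEG3 did not pass it. Neighbours in this order differed from each other by more than the columns did, except for MALAT1 and H19, whose FPKM ratio was 3.96 under the CTRL label and 1.37 under the KD label.

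**Figure D2:**
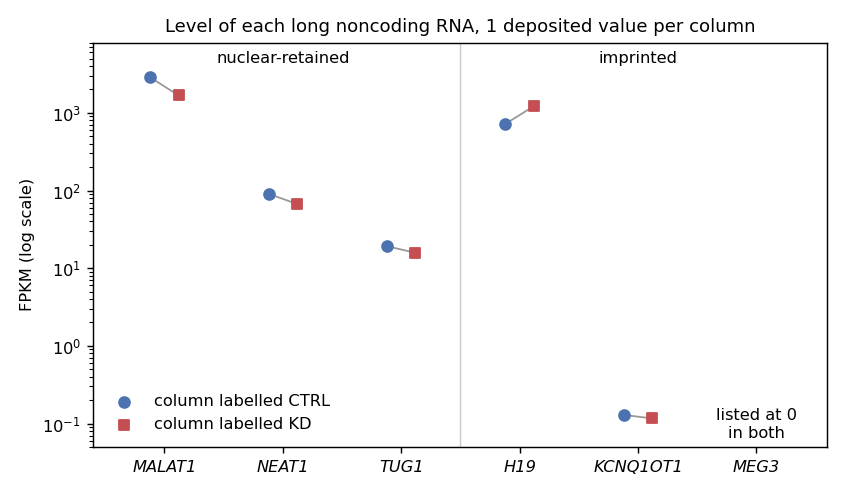
FPKM of the 6 long noncoding RNAs (y axis, log scale) under the CTRL label (blue circles) and under the KD label (red squares), 1 deposited value each, with no error bar because the libraries are not separated. MALAT1, NEAT1 and TUG1 are lower and H19 is higher under the KD label, KCNQ1OT1 is near 0.1 in both and MEG3 is listed at 0.

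The 3 nuclear-retained RNAs were all lower under the KD label and H19 was higher, with FPKM and with each other scaling tried. The log2 ratio of (FPKM + 1), KD over CTRL, was -0.77 for MALAT1, -0.43 for NEAT1, -0.26 for TUG1 and 0.76 for H19. A ratio below 0 was held by 3 of the 4 RNAs that passed the filter, against 48.9% of all 13741 genes that did, and H19 had one above 0, as 51.1% of them did. None of the 4 passed a log2 ratio of 1 in either direction, against 11.8% of all genes. None of the 4 passed 1 with counts divided by the column totals either, where 10.5% of all genes did. Of all genes, 6.96% had a lower ratio than MALAT1 and 19.8% had a lower ratio than NEAT1. The same share was 30.2% for TUG1 and 85.8% for H19.

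MALAT1 (ENSG00000251562), at chromosome 11 from 65265233 to 65273940 in hg19 by the table, was annotated as a lncRNA and had estimated counts of 96091 under the KD label and 163442 under the CTRL label. It ranked 9 and 3 among all genes by count. Its share of all counts was 0.701% (95% exact binomial interval 0.697% to 0.706%) under the KD label and 1.399% (1.393% to 1.406%) under the CTRL label. These intervals, like those below, treat the rounded estimated counts as numbers of reads, which they are not. They therefore stand in for counting error only, and do not cover the difference between cell pools. FPKM was 1.71-fold higher under the CTRL label. As a ratio of count shares, the log2 ratio was -0.996 with an interval of -1.01 to -0.98. Shares divide by the column totals, and the FPKM ratio of -0.77 lies outside this interval. The FPKM ratios of NEAT1, TUG1 and H19 lie outside their share intervals below as well. MALAT1 made up most of the counts of the 6 RNAs, which together held 0.897% of the counts under the KD label and 1.58% of the counts under the CTRL label.

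NEAT1 (ENSG00000245532; lncRNA; chromosome 11, 65190245 to 65213011), which lies upstream of MALAT1 on the same strand, had 9496 counts under the KD label and 11969 under the CTRL label. The log2 ratio of count shares was -0.56 with an interval of -0.60 to -0.52. NEAT1 was lower under the KD label by less than MALAT1 on both scales, and its interval does not overlap that of MALAT1. Both intervals rest on the estimated counts alone, so they cannot show a difference beyond the spread between cell pools. The ratio of MALAT1 to NEAT1 in FPKM, which does not depend on how the columns were scaled against each other, was 24.96 under the KD label and 31.6 under the CTRL label. Reads cannot be given to the short or the long form of NEAT1 from a table of genes.

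TUG1 (ENSG00000253352; chromosome 22, 31366663 to 31375381) is listed as protein coding in GENCODE release 44, since an open reading frame has been annotated in it. It had 1082 counts under the KD label and 1312 under the CTRL label. The log2 ratio of count shares was -0.51 with an interval of -0.63 to -0.39. TUG1 had the smallest difference of the nuclear-retained RNAs in FPKM, and its interval of the share ratio overlaps that of NEAT1.

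H19 (ENSG00000130600; lncRNA; chromosome 11, 2016406 to 2022700), which also carries the microRNA miR-675, had 16076 counts under the KD label and 7638 under the CTRL label. Its FPKM was 1.69-fold higher under the KD label, while its count was 2.10-fold higher. The log2 ratio of count shares was 0.84 with an interval of 0.80 to 0.88. Undivided counts, an alternative chosen after seeing the data, gave a log2 ratio of 1.07, so that H19 passed 1 on this scale and not in FPKM. H19 was the one RNA of the 4 that was higher under the KD label on each of these scales.

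The other imprinted RNAs were near or at the floor. KCNQ1OT1 (ENSG00000269821; lncRNA) had 135 counts under the KD label and 150 under the CTRL label, spread over a transcript of 91667 nt. The log2 ratio of count shares was -0.38, with a wide interval of -0.73 to -0.04. This ratio divides by the column totals, which gives -0.23 for a gene of equal counts. Undivided counts gave -0.15 and (FPKM + 1) gave -0.02, so the interval does not carry over to those scales. The table places KCNQ1OT1 at chromosome 11 from 2465914 to 2882798, which is also the locus it gives for KCNQ1, the potassium channel gene on the opposite strand, whose counts were 196 and 149. The library kit does not mark strand, so reads of the antisense pair in their shared sequence cannot be told apart, and the values of KCNQ1OT1 are uncertain. MEG3 (ENSG00000214548; lncRNA; chromosome 14, 101245747 to 101327368) had 0 counts in both columns. The floor used for a count of 0, which is 3 counts and differs from the exact limit, was 0.219 and 0.257 CPM. No ratio is given for it.

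The imprinted and nuclear-retained RNAs were then compared within each column, where the scaling of the columns cancels. The FPKM of H19 over that of MALAT1 was 0.727 under the KD label and 0.252 under the CTRL label, a 2.88-fold difference. H19 over NEAT1 was 18.2 and 7.97, a 2.28-fold difference, and H19 over TUG1 was 77.1 and 37.7, a 2.05-fold difference. The imprinted group could be set against the nuclear-retained group through H19 alone, since KCNQ1OT1 and MEG3 did not pass the filter.

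Base composition moved with these ratios. Across the 13298 genes, GC-rich transcripts had higher ratios (Spearman rho of 0.445 between GC content and log2 ratio, taken over genes, which do not stand for independent samples). In 4 equal groups of these genes from the lowest to the highest GC content, the median was -0.24, -0.13, 0.09 and 0.47 in log2. The 3 nuclear-retained RNAs were below the median of 47.9% GC, at 42.04% for MALAT1, 44.1% for NEAT1 and 43.1% for TUG1, and H19 had 63.6% GC. H19 had more GC than 95.1% of the genes. The members on each side of the median GC content had ratios of the sign that genes of like content had on the median.

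Compared with genes within 1 percentage point of its own GC content, H19 was near the middle: 58.1% of 434 such genes had a lower ratio, and their median was 0.62. TUG1 was also near the middle, since 42.1% of its 1205 such genes, with a median of -0.18, had a lower ratio. Of the 1094 genes like NEAT1, with a median of -0.15, 25.5% had a lower ratio. MALAT1 stood lowest of these RNAs, as 8.91% of its 1201 such genes, with a median of -0.18, had a lower ratio. After a fitted quadratic dependence on GC content and log2 length was subtracted (the removed trend below), the log2 ratio was -0.56 for MALAT1, -0.14 for NEAT1, -0.095 for TUG1 and 0.074 for H19, and none passed 1, where 8.78% of all genes did. The difference between H19 and MALAT1 was then 0.63 in place of 1.53 on the log2 scale, and that between H19 and NEAT1 was 0.21 in place of 1.19. The part of base composition in the ratios was not tested further.

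**Figure D3:**
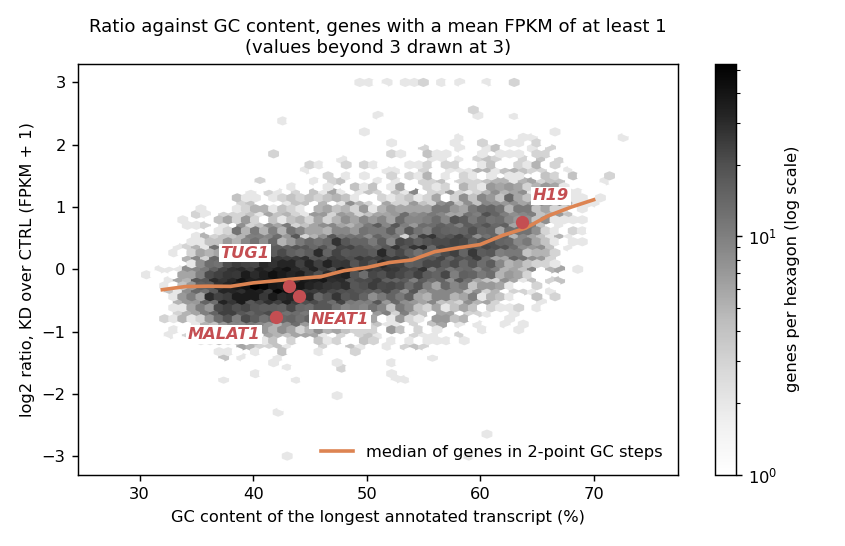
Log2 ratio of (FPKM + 1), KD over CTRL (y axis), against GC content of the longest annotated transcript in percent (x axis) for 13298 genes, with darker hexagons for more genes and the orange line for the median in steps of 2 percentage points. H19 (63.6% GC, 0.76) and TUG1 (43.1% GC, -0.26) lie near the line and MALAT1 (42.04% GC, -0.77) lies below it.

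The length behind each FPKM value was read from the ratio of count to FPKM. Per column total, as planned, it was 4.19 kb for MALAT1, 10.3 kb for NEAT1, 5.001 kb for TUG1 and 0.964 kb for H19 under the KD label. The same lengths were 4.90, 11.3, 5.87 and 0.907 kb under the CTRL label. Over 427 genes with 1 annotated transcript of at least 1000 nt and at least 100 counts in each column, the median was 11.7 counts per FPKM and kilobase in both columns, although the column totals differ. FPKM in the columns therefore rests on 1 scale, and not on each column's own total as the ratios of count shares do. On that scale, chosen after seeing the data, the length behind the FPKM of MALAT1 was 4.91 kb under the KD label and 4.89 kb under the CTRL label. TUG1 had 5.86 kb in both, and KCNQ1OT1 had 99.3 and 99.2 kb.

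NEAT1 and H19 had a different length in each column. NEAT1 had 12.1 kb under the KD label and 11.3 kb under the CTRL label, between its short transcripts and the long one of 22743 nt. H19 had 1.13 kb and 0.905 kb, and this change in length separates its 2.10-fold difference in counts from its 1.69-fold difference in FPKM. Of 9534 genes with at least 100 counts in each column, 90.5% had a smaller absolute difference in length on the log2 scale than H19, and 64.0% had a smaller one than NEAT1. Cuffdiff divides reads among annotated transcripts, so such a length changes with the estimated mix of isoforms. The mix itself is not given in the table.

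**Figure D4:**
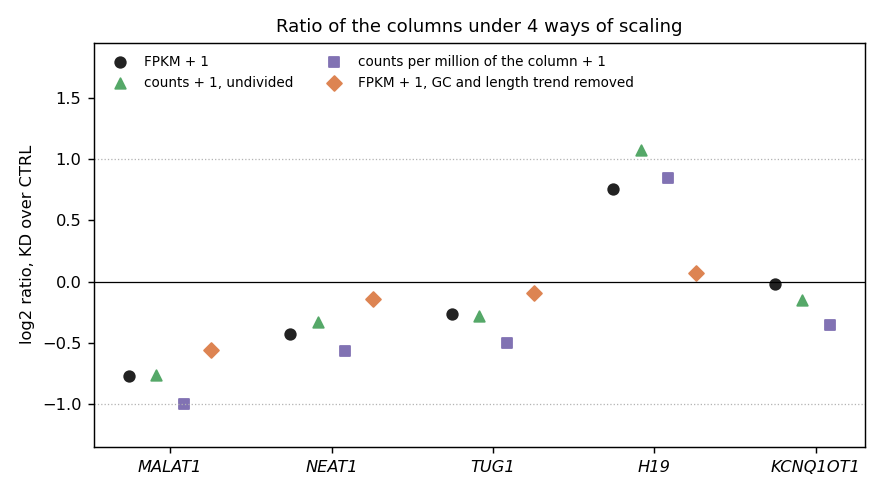
Log2 ratio, KD over CTRL (y axis), of the 5 long noncoding RNAs with counts, from FPKM, undivided counts, counts divided by the column total and FPKM with the GC and length trend removed (not drawn for KCNQ1OT1, which is longer than all genes of the fit). MALAT1, NEAT1 and TUG1 are below 0 and H19 is above 0 in each, and H19 moves from 1.07 with counts to 0.07 with the trend removed.

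The genes next to NEAT1 and TUG1 had ratios of both signs, and those next to H19 and KCNQ1OT1 were above 0. On chromosome 11, FRMD8, upstream of NEAT1, had an FPKM of 8.41 under the KD label and 10.8 under the CTRL label, a log2 ratio of -0.33. MORC2, which lies beside the start of TUG1, had 32.2 and 23.0, a log2 ratio of 0.47. MRPL23, beside H19, had 44.4 and 12.5, a log2 ratio of 1.75, and CDKN1C, beside KCNQ1OT1, had 95.2 and 55.9, a log2 ratio of 0.76.

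The partners of the imprinted RNAs in their own domains were mostly above 0 or without reads. Of 10 genes on this list, 4 passed the filter, of which 3 had a ratio above 0 (51.1% of all genes had) and 1 below, with a median log2 ratio of 0.73 against 0.01 over all genes. CDKN1C, a growth inhibitor, was given above, and PHLDA2, a brake on placental growth, had an FPKM of 48.7 and 23.6, a log2 ratio of 1.02, or 0.82 as a ratio of count shares. SLC22A18 had 17.9 and 18.3, a log2 ratio of -0.03, and KCNQ1 had 10.2 and 5.87, a log2 ratio of 0.71. IGF2, the growth factor gene that shares enhancers with H19, had 2 counts in each column. DLK1, RTL1, MEG8 and MEG9 of the MEG3 domain, and INS, were listed at 0 in both columns, as MEG3 was. The transcripts of the 4 that passed had 62.1% to 63.8% GC, and their median with the trend removed was 0.06. Of 12 imprinted genes elsewhere, 9 passed, with 4 above 0, 5 below and a median of -0.24.

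Genes for proteins of the bodies in which MALAT1 and NEAT1 reside had medians near 0. All 11 paraspeckle genes passed the filter, with 4 ratios above 0, 7 below and a median of -0.04. Among the most abundant were NONO at an FPKM of 714.6 and 589.4, HNRNPK at 400.9 and 381.3 and SFPQ at 191.9 and 256.4 under the KD and CTRL labels in turn. NONO and SFPQ are the core pair that binds NEAT1, and their log2 ratios were 0.28 and -0.42. DAZAP1 was the one paraspeckle gene past 1, at 1.51 in FPKM and 0.52 as a ratio of count shares, and was named after its value was seen.

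All 8 nuclear speckle genes passed, with 4 ratios above 0, 4 below and a median of -0.01. SRRM2, a scaffold of speckles, had an FPKM of 668.9 and 493.6, a log2 ratio of 0.44, and SON, which acts with it, had 139.6 and 131.3, a log2 ratio of 0.09. RNPS1 was the one gene of the 8 past 1, where 11.8% of all genes were, at 1.07 in FPKM and 0.75 as a ratio of count shares, and was named after its value was seen. The 10 genes of nuclear RNA decay and stability had a median of 0.02, with 5 above 0, 5 below and none past 1. Among them PABPN1, the nuclear poly(A)-binding protein that takes part in RNA decay, had a log2 ratio of 0.26 and the exosome nuclease EXOSC10 had one of -0.06.

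Genes that maintain imprints or belong to polycomb complexes were mostly lower under the KD label. Of 10, 9 passed the filter, of which 2 had a ratio above 0 and 7 below (48.9% of all genes were below), with a median of -0.57 against 0.01 over all genes. UHRF1, which guides maintenance of DNA methylation, had an FPKM of 16.8 under the KD label and 34.2 under the CTRL label, a log2 ratio of -0.98. EED, a core subunit of polycomb complex PRC2, had 21.8 and 42.8, a log2 ratio of -0.94. TRIM28, a corepressor at imprinted loci, had 537.3 and 312.3, a log2 ratio of 0.78, and EHMT2, a histone methyltransferase, had 54.3 and 41.2, a log2 ratio of 0.39, which was -0.08 with the GC and length trend removed. DNMT1, the maintenance methyltransferase, was the one past 1 in FPKM, with 14.6 and 34.9 and a log2 ratio of -1.20. With counts divided by the column totals, 4 of the 9 passed 1, where 10.5% of all genes did. As ratios of count shares, UHRF1 was at -1.25, SUZ12 at -1.10, EED at -1.08 and DNMT1 at -1.04. DNMT1 and SUZ12 were named after their values were seen. With the GC and length trend removed, the median of the 8 with a value was -0.39.

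Other long noncoding RNAs had ratios of both signs. Of 24 listed, 21 were found in the table and 19 passed the filter, with 12 ratios above 0 (51.1% of all genes were), 7 below and a median of 0.18. With counts divided by the column totals, 9 of the 19 were above 0, and with the trend removed 15 were. Of these, 4 were higher by 1 or more, where 8.51% of all genes were, and 0 were lower by as much, where 3.27% of all genes were. The most abundant, by FPKM under the KD and CTRL labels in turn, were GAS5 at 865.2 and 716.8, ZFAS1 at 792.7 and 481.5, SNHG1 at 500.4 and 248.5 and DANCR at 246.9 and 122.5, which all host small nucleolar RNAs in their introns. Their log2 ratios were 0.27, 0.72, 1.01 and 1.01. LINC00152 at 1.11 and SNHG15 at 1.29 were the remaining ones past 1, and were named after their values were seen. As ratios of count shares, none of these 4 passed 1: SNHG1 was at 0.74, SNHG15 at 0.75, DANCR at 0.81 and LINC00152 at 0.82.

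**Figure D5:**
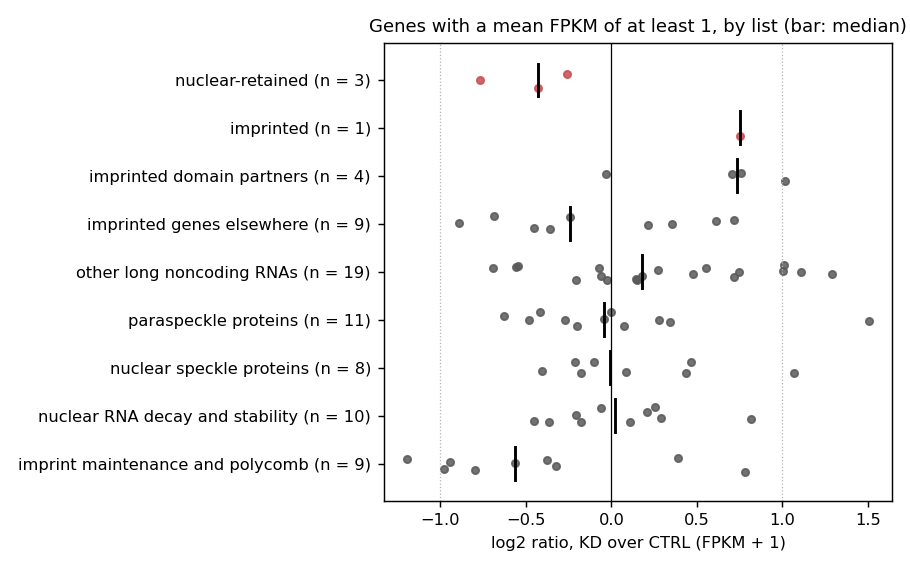
Log2 ratio of (FPKM + 1), KD over CTRL (x axis), of each gene that averaged 1 FPKM or more in 9 lists (rows, with the number of genes), where each point is a gene and the bar is the median. The 3 nuclear-retained RNAs lie from -0.77 to -0.26, and the median of the other long noncoding RNAs is 0.18.

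The genes whose pair of FPKM values lay closest to those of a member were found over these columns only, by the summed absolute difference in log2(FPKM + 1). They included NKRF for TUG1, at 0.0056, and SHKBP1 and PPP6C for NEAT1, at 0.029 and 0.039. For H19 they were EDF1, at 0.068, and RP11-161H23.5, at 0.079. MALAT1 had no gene as close, with PRDX1 at 0.40 and ATP5B at 0.41.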

How the data were processed

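The libraries were made with the TruSeq RNA Sample Preparation Kit V1 and sequenced as 100-nt pairs. Per the authors' methods and processing notes, reads were mapped with TopHat 1.4.1 to hg19 and Ensembl release 65, and FPKM was computed with Cuffdiff 2.2.0. The deposited table holds FPKM and estimated counts, 1 value of each per gene and group, and how libraries were combined is not given in the sources used here. Its columns of the authors' own comparison (fold change, p-value, FDR) and 4 columns of group averages, maxima and minima were not used, and 0 columns belonged to other samples. Table starts were written 1-based.

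Log2 ratios used FPKM with a pseudocount of 1, which understates changes of low genes, and genes that averaged 1 FPKM or more. Estimated counts were rounded for 95% exact binomial intervals. The threshold was a log2 ratio of 1. Linear models planned for separate libraries were not run. Genes were named as members, as the most abundant of each list (up to 4), as the nearest genes by position or level, or as stated; the members and lists were chosen with earlier results of these data known. Alternatives were a pseudocount of 0.1, counts per column total, median centring, other filters and removal of a GC and length trend. Transcripts were from GENCODE release 44 on GRCh37, where 96.8% of genes that passed had GC and length. The functions were tested on simulated data. Scripts ran on matplotlib 3.10.9, scipy 1.17.1, pandas 2.3.3 and numpy 2.4.6 under Python 3.11.15. Some items withheld from this text are not reported here.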

Additional observations from a re-analysis of the deposited data

How the results depend on the processing

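Across 28 results, 105 values were computed under alternatives, of which 80 did not move past their limit, 25 did and 0 changed the sign of a value past 1. The limit was the counting interval of a gene, the interval of a list's median, 1.5 times a count of genes or 1.5 times a length. The last count leaves out sign changes of smaller values, and no member was past 1 with FPKM. Smaller values that changed sign included KCNQ1OT1, from -0.02 to 0.55, and the imprinted genes elsewhere, from -0.24 to 0.21. The medians of nuclear RNA decay, from 0.02 to -0.41, and of other long noncoding RNAs, from 0.18 to -0.02, did so too. The cause of these moves was not tested. With counts divided by the column totals, the log2 ratio was -0.996 for MALAT1, -0.56 for NEAT1, -0.50 for TUG1 and 0.84 for H19, the median of all genes was -0.18, by 1 or more 641 genes were higher and 803 were lower, against 1169 and 450 with FPKM, and the median of the nuclear RNA decay genes was -0.41. After the dependence on GC content and length was subtracted, it was -0.56 for MALAT1, -0.14 for NEAT1, -0.095 for TUG1, 0.074 for H19 and 0.55 for KCNQ1OT1, which is an extrapolation since 0 genes of the fit were as long, and 668 genes were higher by 1 or more. The difference from H19 was then 0.63 for MALAT1, 0.21 for NEAT1 and 0.17 for TUG1, against 1.53, 1.19 and 1.03 with FPKM. Centring on the median gave -0.78 for MALAT1. A pseudocount of 0.1 gave 791 genes lower by 1 or more, and an FPKM of over 5 in at least 1 column gave 292, where fewer genes were counted, and the latter gave a median of 0.21 for the imprinted genes elsewhere, against -0.24. Undivided counts, an alternative chosen after seeing the data, gave -0.33 for NEAT1 and 1.07 for H19, so that 1 member was past 1 against 0, and differences from H19 of 1.84 for MALAT1, 1.41 for NEAT1 and 1.35 for TUG1.

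No paired analysis was possible because each group is a single value per gene. Leaving out single replicates was not run, as the libraries are not separated. Depth limits KCNQ1OT1, with 135 and 150 counts, and MEG3, with 0.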

Other observations

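The imprinted region of chromosome 11 was followed gene by gene, from MRPL23 to PHLDA2 (chromosome 11, 1968508 to 2950685 in hg19), a window chosen after seeing the values. Of the 10 genes there that averaged 1 FPKM or more, 8 had a log2 ratio above 0 (51.1% of all genes had), 2 had one below 0 and 5 were higher by 1 or more (8.51% of all genes were), with a median of 0.89. TSSC4 had an FPKM of 26.7 under the KD label and 6.91 under the CTRL label, a log2 ratio of 1.81, and the tetraspanin gene CD81 had 164 and 75.1, a log2 ratio of 1.12. SLC22A18AS, which overlaps SLC22A18 in the opposite direction, was lowest, with 8 and 31 counts and a log2 ratio of -1.46, and without strand its reads cannot be told apart from those of SLC22A18. The median GC content of these genes was 63.2%, and with the GC and length trend removed 8 were above 0, with a median of 0.18, and 2 were higher by 1 or more, MRPL23 at 1.12 and RPL26P30, a ribosomal protein pseudogene whose reads are uncertain, at 1.23.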
